A study of Mus musculus with 8 samples.

Results

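Soluble guanylate cyclase, the receptor of nitric oxide, and the genes that make, read and remove its product cyclic GMP (cGMP) were examined in SOX4-deficient mammary tumor organoids. The set held 8 genes, Gucy1a1, Gucy1b1, Prkg1, Prkg2, Pde5a, Nos1, Nos2 and Nos3, of 38293 gene identifiers in the bulk files and 15150 gene symbols in the single-cell files, where Gucy1a1 and Gucy1b1 stand under the older symbols Gucy1a3 and Gucy1b3. It was chosen by gene family, with the bulk difference of Gucy1b1 between SOX4KO and control lines known. The bulk differences of the members are therefore given as a description. How many members were called is printed beside the share or number of all genes called, and supports nothing here.

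The organoids came from mouse mammary tumors of the MMTV-PyMT; MMTV-Cre; Ecadherin-mCFP model, in which a mammary promoter drives the PyMT oncogene, so control and SOX4KO lines carry the same transgenes. SOX4KO lines had been made with CRISPR/Cas9 and carry indels in Sox4. All organoids had grown from single cells over 4 days, in a medium with B27 and FGF2. Bulk RNA-sequencing covered 2 control lines (WT1 and WT3) and 3 SOX4KO lines (H7, M4 and H4), with 1 library per line. Single-cell RNA-sequencing covered 1 control library (GR17) and 2 SOX4KO libraries (GR18 and GR19), and the labels do not say which of the bulk lines these are. A line is 1 clone or culture, so the spread between lines holds the difference between clones as well as the effect of the knockout.

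In the textbook pathway, nitric oxide synthases (Nos1, Nos2 and Nos3) make nitric oxide from arginine, and nitric oxide binds the haem of soluble guanylate cyclase. The cyclase works as a pair of an alpha subunit (Gucy1a1 or Gucy1a2) and the beta subunit (Gucy1b1), and it turns GTP into cGMP. cGMP activates the kinases Prkg1 and Prkg2, and Pde5a breaks it down. The pathway is best known from blood vessels, where endothelium makes nitric oxide and smooth muscle and pericytes hold the cyclase.

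The depth of bulk libraries was 3050323 to 4678497 reads on genes, so that 3 counts, taken as the limit that a count of 0 allows, correspond to 0.641 to 0.984 CPM (counts per 1000000 reads on genes). Single-cell libraries held 7714119 to 8296953 unique molecular identifiers (UMIs) in 362 to 369 cells, with medians of 19845 to 21876 UMIs per cell. Sox4 itself had 295 and 374 CPM in the control lines and 199, 179 and 299 CPM in H7, M4 and H4. These ranges overlap, and since an indel need not remove a transcript, the level of Sox4 mRNA does not check the labels. Of 9 endothelial markers 5 had no count in any line (Cdh5, Kdr, Tie1, Cldn5 and Emcn), and their summed level was 1.29 to 2.59 CPM in control and 1.92 to 3.96 CPM in SOX4KO lines. Of 9 markers of pericytes or vascular smooth muscle 6 averaged under 1 CPM (Rgs5, Cspg4, Kcnj8, Abcc9, Des and Higd1b). The summed list was at 199 to 200 CPM in control and 199 to 232 CPM in SOX4KO lines, most of it from Mcam and Notch3. Pdgfrb was at 5.70 and 1.19 CPM in WT1 and WT3 and at 16.4, 9.36 and 0.958 CPM in H7, M4 and H4. Immune markers summed to 1.79 to 1.81 CPM in control and 2.16 to 14.4 CPM in SOX4KO lines, with Cd3e, Adgre1, Lyz2 and Itgam at no count. Most of the highest sum was Cd68, at 14.1 CPM in H7.

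Gucy1b1 and Gucy1a1 are neighbours on the minus strand of chromosome 3. In the GENCODE annotation of GRCm38, Gucy1b1 spans chr3:82032006-82074689 and Gucy1a1 spans chr3:82092427-82145789, with 17737 bases between them. Pde5a (chr3:122728947-122859374, plus strand) lies on the same chromosome, and Prkg2 (chr5:98929773-99037351, minus strand) and Nos3 (chr5:24364810-24384474, plus strand) lie on chromosome 5. The authors' counts were made on NCBIM37 (mm9), so these positions place the genes but are not those of the files. RefSeq promoter windows of GRCm38.p6 run from 250 bases before a transcript's start to 50 bases after it. There were 7 such windows for 5 of the 8 members (Gucy1a1, Gucy1b1, Nos1, Pde5a and Prkg1). Prkg2, Nos2 and Nos3 had no window. The 250 bases before the Gucy1b1 start (chr3:82074712-82074961, minus strand) are shown because Gucy1b1 was the member with the largest bulk difference. Capitals mark the letters ATTGG, which read CCAAT on the other strand.

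Gucy1b1 promoter: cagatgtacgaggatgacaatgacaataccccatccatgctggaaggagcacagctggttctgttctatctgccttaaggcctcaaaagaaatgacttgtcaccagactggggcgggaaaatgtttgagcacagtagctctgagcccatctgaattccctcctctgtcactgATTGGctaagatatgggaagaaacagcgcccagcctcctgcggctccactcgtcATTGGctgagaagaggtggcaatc

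Neither AACAAT nor AACAAAG (whose reverse complement is CTTTGTT), core letters bound by SOX proteins, was found on either strand in any of the 7 member windows. Prkg2, Nos2 and Nos3, without a window, were not searched. Among all 32851 windows, AACAAT was present in 10.7% and AACAAAG in 5.85%. The Gucy1b1 sequence holds CCAAT at 2 places on the strand opposite to the gene, starting 78 and 24 bases before the start. This motif was looked for after the sequence had been read. At least 1 CCAAT was present before the start in 33.8% of windows and at least 2 in 10.1%. Neither Gucy1a1 window holds one in those bases. The Gucy1b1 window has a GC content of 52.3% and 6 CG pairs, against medians of 52.7% and 7 over all windows, while both Gucy1a1 windows have 62.3% GC with 14 and 15 CG pairs.

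Among the cyclase subunits, Gucy1b1 stood 7.45-fold higher in SOX4KO than in control lines, and Gucy1a1 had at most 4 reads in any line. Gucy1b1 had 44 reads in WT1 and 82 in WT3, and 411, 283 and 432 reads in H7, M4 and H4. With edgeR's TMM normalization, these are 11.4 and 16.3 CPM in control lines and 107, 102 and 103 CPM in SOX4KO lines. The 3 SOX4KO lines lay close together, and all of them lay far above both controls. The means were 13.9 ± 3.49 CPM (SD, n = 2) and 104 ± 2.76 CPM (SD, n = 3), a fitted log2 fold change of 2.90 with a standard error of 0.22.

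Gucy1a1, the usual alpha subunit, had 3 and 0 reads in the control lines and 4, 3 and 3 reads in the SOX4KO lines. WT3 had none and the other lines 3 or 4, and the groups overlapped, so no difference was detectable at this depth. The pooled ratio of 10 to 3 reads, scaled by depth, was 2.46 with a 95% counting interval of 0.634 to 13.9. Gucy1a2, the other alpha subunit, had no read in any bulk line. Gucy1b2, a further beta subunit, had 0 to 3 reads. Per kilobase of exon, the mean level of Gucy1b1 in SOX4KO lines was 26.5 CPM and that of Gucy1a1 was 0.136 CPM. In control lines the corresponding levels per kilobase were 3.53 and 0.0557 CPM. The beta subunit was thus counted well above the alpha subunit in both groups, and protein was not measured here.

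The kinases differed from each other. Prkg1, the kinase of smooth muscle, had no read in any of the 5 bulk lines. Prkg2, a membrane-bound kinase known from intestine, kidney and growth plate, had 14 and 4 reads in the control lines and 31, 28 and 43 reads in H7, M4 and H4. These correspond to 3.62 and 0.797 CPM in control and to 8.09, 10.1 and 10.3 CPM in SOX4KO lines. The groups did not overlap, but the controls differed from each other by more than the SOX4KO lines did. The log2 fold change of Prkg2 was 2.15 (standard error 0.56), from 2.21 ± 2.0 CPM (SD, n = 2) to 9.49 ± 1.22 CPM (SD, n = 3). Without WT3, the control with 4 reads, the log2 fold change was 1.38, and without WT1 it was 3.52.

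Pde5a, which degrades cGMP, went the other way. It had 54 and 61 reads in the control lines and 28, 8 and 10 reads in the SOX4KO lines, or 14 and 12.1 CPM against 7.31, 2.88 and 2.39 CPM. H7 lay between the controls and the other two SOX4KO lines. The means were 13.1 ± 1.29 CPM (SD, n = 2) and 4.19 ± 2.71 CPM (SD, n = 3), with a log2 fold change of -1.62 (standard error 0.46). Leaving out H7 moved this value to -2.31. In the annotation, 55 exon bases of Pde5a are shared with 4930447N08Rik on the opposite strand.

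The nitric oxide synthases were barely counted. Nos2, the inducible enzyme, had no read in any line, and Nos1, the neuronal enzyme, had 1 read in WT3 and none elsewhere. Nos3, the endothelial enzyme, had 1 and 2 reads in the control lines and 11, 5 and 3 reads in the SOX4KO lines. The pooled ratio of 19 to 3 reads, scaled by depth, was 4.68 with a 95% counting interval of 1.38 to 24.7, which covers counting error only. Up to 1040 exon bases of Nos3 are shared with another gene on the opposite strand (Atg9b and Gm15587 overlap it). The kit was directional, but the strand setting of the counting is not given in the sources used here, so reads of Nos3 and its antisense partners may be mixed.

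**Figure D1:**
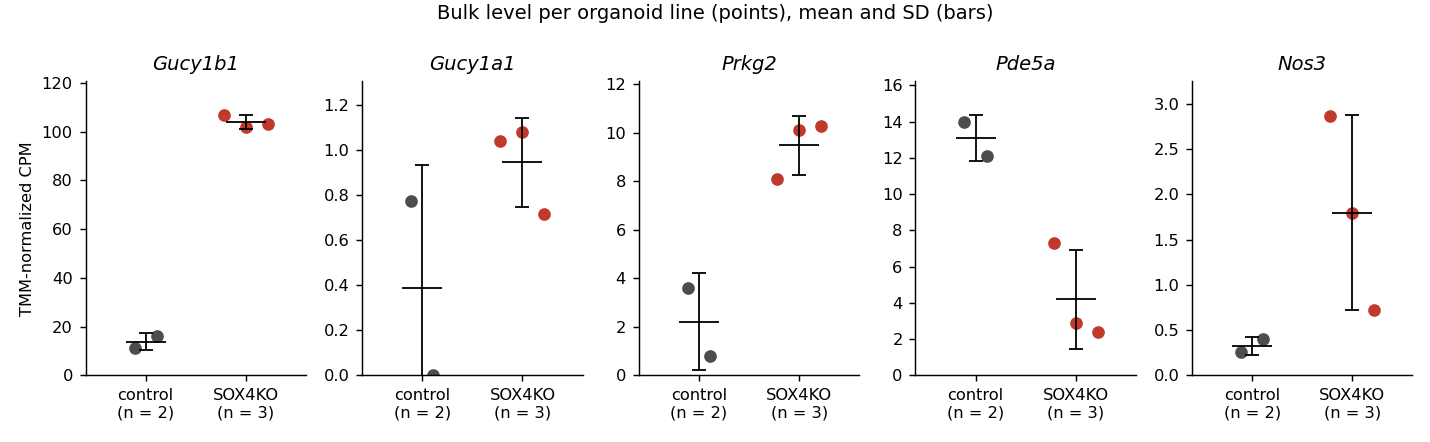
Level of 5 members in bulk, in TMM-normalized CPM on the vertical axis (linear, with its own scale for each gene), for each control line (grey points) and each SOX4KO line (red points), with mean and SD as bars. Gucy1b1 was at 11.4 and 16.3 CPM in control and at 102 to 107 CPM in SOX4KO lines, while Gucy1a1 stayed at or under 1.08 CPM in every line.

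Of the 8 members, 3 passed the filter on low counts (Gucy1b1, Prkg2 and Pde5a) and 5 did not. In those 3 all SOX4KO lines lay on one side of both controls, which was also so for 36.9% of the 11682 genes tested. At an adjusted p under 0.1 in edgeR's quasi-likelihood test with Benjamini-Hochberg adjustment, 2 members were called (Gucy1b1 and Prkg2), where 6.27% of all genes tested were called. Since the set was chosen with this contrast known, nothing is read from these counts. Of the 13 other protein-coding genes within 1 Mb of Gucy1b1, a window set by position after the values were seen, 4 were tested. Ctso, a cathepsin, was the 1 that was called, with 134 and 152 reads in control and 246, 139 and 233 reads in SOX4KO lines and a difference of 0.81 on the log2 scale (SE 0.19, adjusted p = 0.0672, edgeR). Plrg1, Pdgfc and Map9 had log2 fold changes of 0.05, 0.07 and 1.16 (standard errors 0.19, 0.24 and 0.43) and were not called.

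Other gene groups moved with the same contrast in bulk. Of 12 cycling markers 7 fell at an adjusted p under 0.1 in edgeR, and the sum of the list was 695 to 708 CPM in control and 312 to 478 CPM in SOX4KO lines. Of 14 basal markers 9 were tested, and 3 of these were called higher (Oxtr, Sparc and Jag2) and none lower. Krt17 had a log2 fold change of -1.08 (SE 0.78) and was not called. Acta2, Myh11, Cnn1, Tagln and Cdh3 averaged under 1 CPM. The sum of the basal list was 1368 to 2085 CPM in control and 2459 to 7074 CPM in SOX4KO lines. Sparc carried this sum, and without it, a choice made after seeing the data, the levels were 783 and 635 CPM in WT1 and WT3 and 1117, 1731 and 766 CPM in H7, M4 and H4, which overlap. The sum of 20 luminal markers was 5842 to 5925 CPM in control, 5972 to 6172 CPM in M4 and H7, and 11363 CPM in H4, with 1 marker called higher (Esr1) and 1 lower (Cited1). Lcn2 and Csn3 carried this sum, and without them, also a choice made after seeing the data, it was 3422 and 3398 CPM in WT1 and WT3 and 2275, 2661 and 3184 CPM in H7, M4 and H4. The level of Gucy1b1 was 102 to 107 CPM in these same 3 SOX4KO lines. The 10 fibroblast markers summed to 200 to 309 CPM in control and 121 to 138 CPM in SOX4KO lines, mostly from Pdgfra and Col1a1, with Fap, Thy1, Dpt and Pi16 at no count. In the single-cell libraries GR17, GR18 and GR19, the basal list summed to 4299, 4444 and 2281 CPM, so it was not higher in both SOX4KO libraries. The luminal list summed to 5227, 8510 and 10614 CPM there, and the cycling list to 2899, 2258 and 2298 CPM. The part of any of these gene groups in the differences of the members was not tested. In bulk, fewer cells of a type and less RNA per cell cannot be told apart.

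The rest of the cGMP and nitric oxide pathway was read from a fixed list. This list of 81 further genes held 39 that were tested in bulk, and 3 of these were called, 2 higher and 1 lower in SOX4KO lines. Over all genes tested 6.27% were called, so the share in the list was near the background. Over the 39 tested genes the median log2 fold change was 0.05, beside 0.01 over all genes tested. Of the 81 genes 20 had no read in any line, and Pde2a was not analysed in bulk.

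Cav1, caveolin-1, which binds and restrains endothelial nitric oxide synthase, rose in SOX4KO lines. It was at 166 and 93.0 CPM in the control lines and at 452, 421 and 309 CPM in H7, M4 and H4. On the log2 scale Cav1 rose by 1.61 (SE 0.29, adjusted p = 0.0320, edgeR). Slc7a2, a transporter of arginine, the substrate of the synthases, rose as well. It was at 20.5 and 28.5 CPM in the control lines and at 57.7, 73.8 and 59.4 CPM in SOX4KO lines, a rise of 1.37 on the log2 scale (SE 0.22, adjusted p = 0.0229, edgeR). Ddah1, which removes the methylarginines that inhibit nitric oxide synthases, fell. It was at 75.1 and 69.9 CPM in the control lines and at 22.4, 31.7 and 38.3 CPM in SOX4KO lines, a change of -1.23 on the log2 scale (SE 0.23, adjusted p = 0.0348, edgeR). The groups did not overlap for any of these genes. Without WT3 the adjusted p in edgeR was 0.311 for Cav1, 0.139 for Slc7a2 and 0.254 for Ddah1, so that none was called. Without WT1 it was 0.0667 for Cav1, which stayed called, and 0.177 and 0.199 for Slc7a2 and Ddah1.

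By role, the tested genes were uneven. Of 7 membrane guanylate cyclases, which answer natriuretic or gut peptides, 1 was tested. This was Npr2, with 57 and 51 reads in control and 116, 55 and 25 reads in SOX4KO lines, which overlap. None of the 6 peptide ligands and clearance receptors was tested. Of 15 other phosphodiesterases 2 were tested, and of 10 cyclic nucleotide gated channels 1 was. None of these was called. Of 12 kinase substrates and partners 9 were tested and none was called, and their median log2 fold change was -0.14. Of 11 synthase partners 10 were tested and 1 was called (Cav1). All 8 genes of arginine supply and competing or inhibitory enzymes were tested, and 2 were called (Slc7a2 and Ddah1). Of 5 genes of tetrahydrobiopterin synthesis, which makes the cofactor of the synthases, 4 were tested, as were 3 of 3 genes of haem reduction and nitric oxide removal and 1 of 2 exporters. None of these 8 was called.

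**Figure D2:**
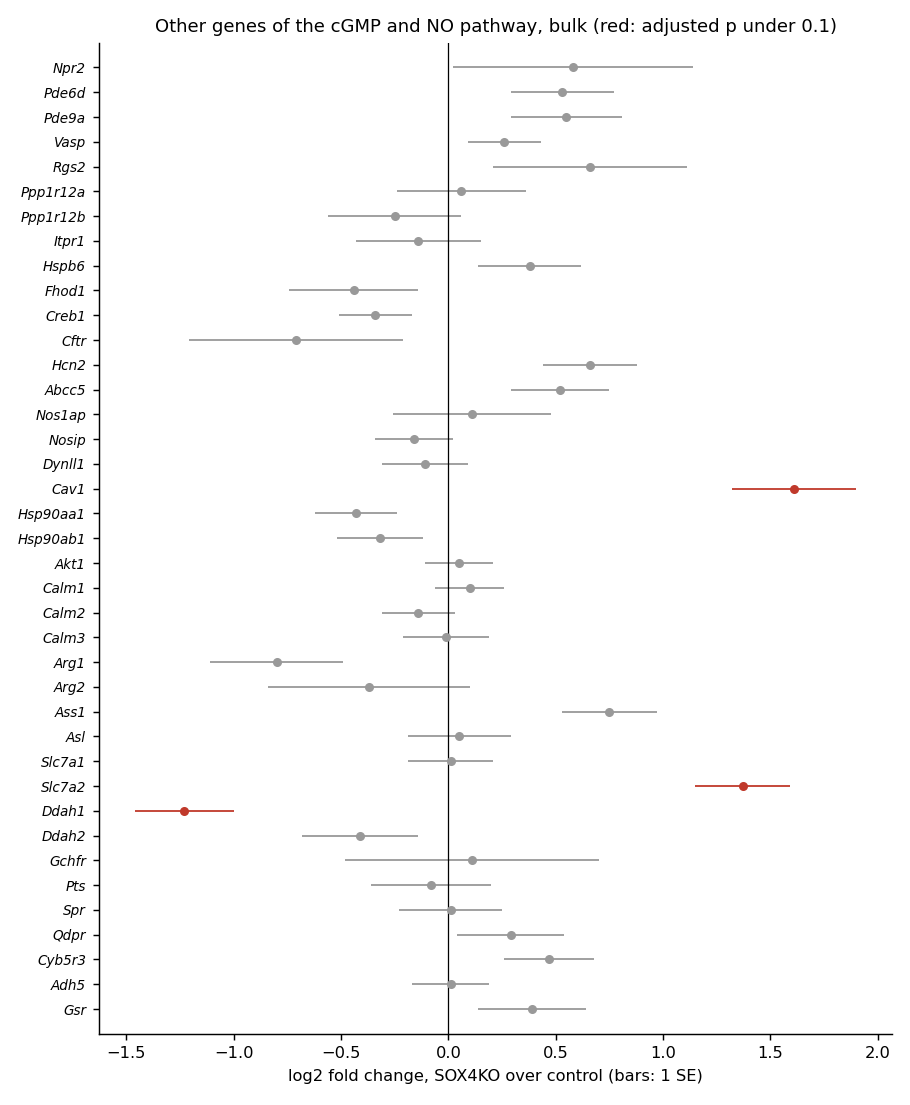
Log2 fold change of SOX4KO over control lines in bulk (horizontal axis) for the 39 tested genes of the pathway list, in order of role, with bars of 1 standard error and genes called at an adjusted p under 0.1 in red. Cav1 (1.61) and Slc7a2 (1.37) lie to the right and Ddah1 (-1.23) to the left of the rest.

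The single-cell libraries gave a second measurement of the same genes in other libraries. No test was run with 1 control library, and the intervals below cover counting error only. Gucy1b1 was higher in both SOX4KO libraries. It had 42 UMIs in GR17, 199 in GR18 and 166 in GR19, or 5.44 CPM (95% Poisson interval 3.92 to 7.36), 24.8 CPM (21.5 to 28.5) and 20.01 CPM (17.1 to 23.3). The ratio to the control library was 4.56 (95% counting interval 3.26 to 6.53) for GR18 and 3.67 (2.61 to 5.29) for GR19. At least 1 UMI of Gucy1b1 was found in 8.40% of cells of GR17 (Clopper-Pearson 95% interval 5.78 to 11.7), 26.0% of GR18 (21.6 to 30.8) and 24.0% of GR19 (19.7 to 28.8). After thinning each cell to 10000 UMIs, which left out 35, 39 and 20 shallower cells, the shares were 4.19%, 17.6% and 14.3%. The wells with fewer than 1000 UMIs, 15, 15 and 22 in number, held no UMI of any member in 4513, 4341 and 5150 UMIs. These are too few UMIs to show stray UMIs of genes at such levels, so nothing is read from this. No cell type that should lack Gucy1b1 could be set beside these shares, since the cells came from tumor organoids and no other cell type was labelled among them.

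Of 9472 genes averaging 5 CPM or more, 3.15% were at least 2-fold apart from control in the same direction in both SOX4KO libraries, with 1 CPM added. Gucy1b1 and Prkg2 were the 2 members at this level, and Gucy1b1 was the 1 past this fold.

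Prkg2 ran opposite to bulk. It had 357 UMIs in GR17, 280 in GR18 and 265 in GR19, or 46.3 CPM (41.6 to 51.3), 35.0 CPM (31.0 to 39.3) and 31.9 CPM (28.2 to 36.0). Both SOX4KO libraries lay below the control library, with ratios of 0.755 (95% counting interval 0.644 to 0.886) and 0.690 (0.587 to 0.811). In bulk every SOX4KO line had lain above both controls. Cells with a UMI of Prkg2 made up 37.9% of GR17, 28.7% of GR18 and 29.0% of GR19, and after thinning 23.4%, 20.3% and 17.5%.

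Pde5a was lower in both SOX4KO libraries, as in bulk. It had 38 UMIs in GR17, 18 in GR18 and 9 in GR19, or 4.93 CPM (3.49 to 6.76), 2.25 CPM (1.33 to 3.55) and 1.08 CPM (0.496 to 2.06). The interval of GR17 overlaps that of GR18 narrowly and not that of GR19. Nos3 had 1, 13 and 7 UMIs, each in a different cell, so that both SOX4KO libraries again lay above control. The ratio was 12.5 (1.88 to 532) for GR18 and 6.51 (0.836 to 293) for GR19, and the second interval includes 1. Gucy1a1 had 1 UMI in each library, and Nos2 had 1, 2 and 0. Prkg1 and Nos1 are not among the symbols of the single-cell files.

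**Figure D3:**
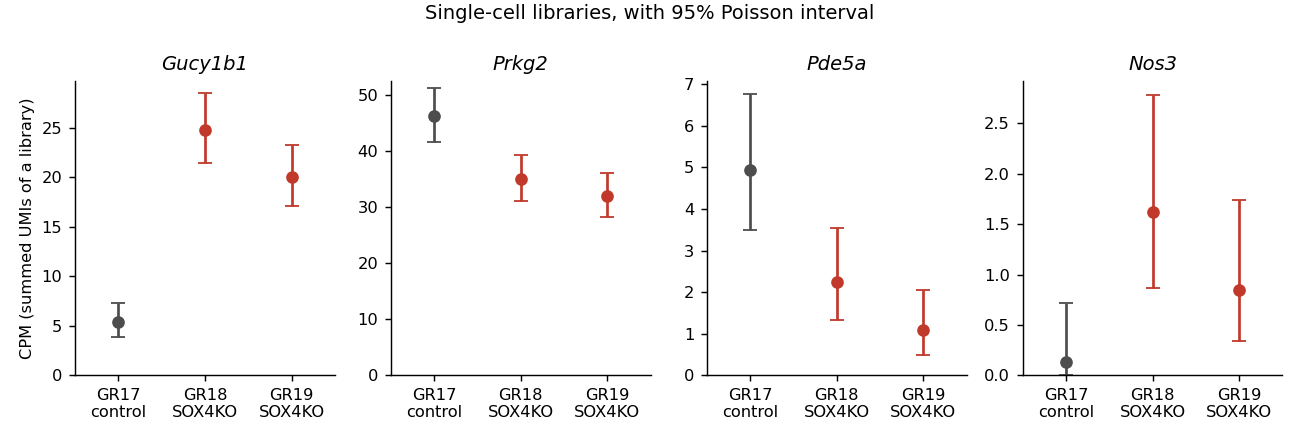
Level of 4 members in the single-cell libraries, as CPM of the summed UMIs (vertical axis, linear, with its own scale for each gene), for the control library GR17 (grey) and the SOX4KO libraries GR18 and GR19 (red), with 95% Poisson intervals. Gucy1b1 is at 5.44 CPM in control and at 24.8 and 20.01 CPM in SOX4KO, whereas Prkg2 is at 46.3 CPM in control and at 35.0 and 31.9 CPM in SOX4KO.

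Single cells also show which subunits were counted together. Of 214 cells with a UMI of Gucy1b1, 3 also had a UMI of an alpha subunit, 1 in each library. Over all cells, 4 had such a UMI, so 3 of these 4 were among the cells with Gucy1b1. Cells with Gucy1b1 made up 8.40% of GR17, 26.0% of GR18 and 24.0% of GR19, and were deeper in every library. With 4 such cells, nothing is read about whether the subunits occur together.

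Pde9a, a cGMP phosphodiesterase that is named after its values were seen, was at 12.9 and 14.3 CPM in the control lines and at 17.7, 16.9 and 24.9 CPM in the SOX4KO lines in bulk, where it was not called (adjusted p = 0.330, edgeR). In single cells it had 10, 67 and 105 UMIs in GR17, GR18 and GR19, or 1.30 CPM (0.622 to 2.38), 8.37 CPM (6.48 to 10.6) and 12.7 CPM (10.4 to 15.3).

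The 3 called pathway genes were counted in single cells as well. Slc7a2 had 5, 42 and 53 UMIs in GR17, GR18 and GR19, or 0.648, 5.24 and 6.39 CPM, so that both SOX4KO libraries lay above control. Cav1 was at 140 CPM (131 to 148) in GR17, 254 CPM (244 to 266) in GR18 and 188 CPM (179 to 198) in GR19. Ddah1, lower in bulk, was at 8.69 CPM (6.73 to 11), 9.49 CPM (7.48 to 11.9) and 11.9 CPM (9.70 to 14.5), and was not lower in either SOX4KO library.

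Cells were grouped into 6 clusters, lettered by size, without using the members or the pathway genes. Control and SOX4KO cells lay largely in different clusters. Cluster A held 330 of the 369 control cells and 18 SOX4KO cells, and clusters C and F held no control cell. Clusters are described by the median of a marker list, as the difference of log2 CPM from the mean of the clusters. The medians used listed genes averaging at least 1 CPM over the clusters. These were 17 of 20 luminal, 9 of 14 basal and 12 of 12 cycling markers. Luminal markers were highest in cluster E (1.22) and cluster D (0.97), where basal markers were lowest (-1.77 and -1.81). Basal markers were highest in cluster B (1.49), and were at 0.57 in A, 0.56 in C and 0.79 in F. Cycling markers were highest in F (1.22), at 0.73 to 0.86 in A, C and D, and lowest in B (-1.59) and E (-1.36).

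Among SOX4KO cells of both libraries together, Gucy1b1 was highest in the clusters with the highest luminal markers. These cells gave 38.1 CPM (32.0 to 45.1) in D and 34.7 CPM (27.8 to 42.7) in E, against 16.1 CPM (12.1 to 20.9) in B, 12.8 CPM (9.55 to 16.7) in C and 11.4 CPM (7.52 to 16.6) in F. In D it was at 43.6 CPM in GR18 and 34.6 CPM in GR19, and in E at 48.6 and 21.6 CPM. In B it was at 14.2 CPM in GR18 and 18.1 CPM (12.2 to 25.9) in GR19, so that E and B did not stand apart in GR19. In F it was at 18.0 CPM in GR18 and 4.37 CPM in GR19, and the latter lay within the interval of the control cells of cluster A, 5.61 CPM (3.99 to 7.67). A UMI of Gucy1b1 was present in 53.3% of SOX4KO cells in D and 37.6% in E, and in 13.8% to 17.5% in B, C and F. Cells of D had the highest median depth, 29170 UMIs among SOX4KO cells, against 16156 to 23702 in B, C, E and F.

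The 15 control cells in D and the 15 in E had 2 UMIs and 1 UMI of Gucy1b1, or 4.73 CPM (0.573 to 17.1) and 3.96 CPM (0.10 to 22.1). In both clusters, the upper limits for control cells lay below the lower limits for SOX4KO cells of both libraries together. In E this rested on GR18, since GR19 alone was at 21.6 CPM (14.4 to 31.2), which overlaps the control interval. With 15 cells of 1 library on the control side, this is a description of these cells.

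Prkg2 showed nearly the reverse order. Among SOX4KO cells it was at 71.2 CPM (63.3 to 79.8) in C and 56.6 CPM (47.4 to 67.1) in F, at 21.2 CPM (16.7 to 26.7) in B, at 9.18 CPM (6.32 to 12.9) in D and at 2.39 CPM (0.877 to 5.20) in E. The basal medians were 0.56 in C and 0.79 in F, beside 1.49 in B. The cycling medians were 0.73 in C and 1.22 in F, beside 0.80 in D. C and F overlapped in their intervals of Prkg2. The libraries did not agree on which of these was higher. GR18 had 87.0 CPM in C and 35.2 CPM in F, and GR19 had 53.3 CPM in C and 79.6 CPM in F. A single cell held up to 18, 17 and 20 UMIs of Prkg2 in GR17, GR18 and GR19. The Poisson intervals take UMIs as independent and leave out this spread between cells. In the control cells of cluster A Prkg2 was at 50.6 CPM (45.5 to 56.2), below the pooled SOX4KO cells of C. This too rested on GR18, since GR19 in C, at 53.3 CPM (43.6 to 64.6), overlaps the control cells of A. The pooled SOX4KO cells of F overlapped these control cells, but the libraries differed. GR19 in F lay above them, at 79.6 CPM (64.1 to 97.7), and GR18 in F overlapped them, at 35.2 CPM (25.4 to 47.4). With 20 principal components in place of 10, most control cells fell into 2 other clusters. In the one with 204 control cells Prkg2 was at 66.8 CPM (59.6 to 74.7) and Gucy1b1 at 3.45 CPM (1.97 to 5.60). In the one with 133 control cells Prkg2 was at 15.6 CPM (11.2 to 21.3) and Gucy1b1 at 9.37 CPM (6.01 to 13.9). The opposite order of the 2 genes was thus seen among control cells too. This last Gucy1b1 interval overlaps that of a cluster of 166 SOX4KO cells at this setting, 12.5 CPM (9.34 to 16.4). It lies below that of the highest SOX4KO cluster, 38.1 CPM (33.3 to 43.4).

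**Figure D4:**
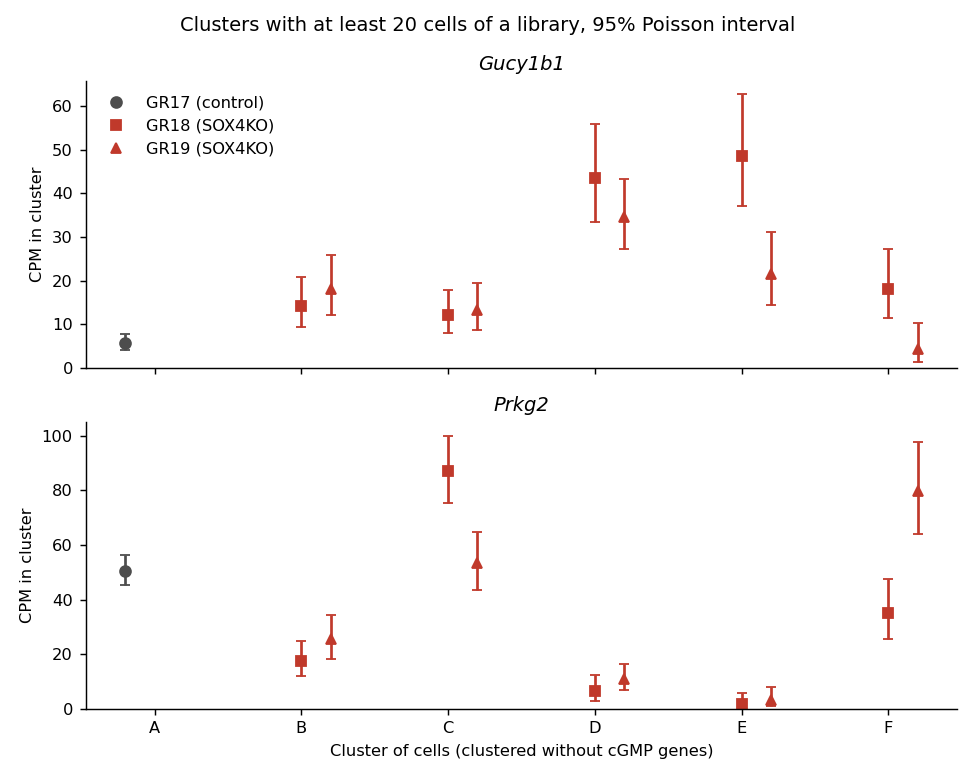
CPM of Gucy1b1 (upper panel) and Prkg2 (lower panel) by cluster (horizontal axis, A to F), for the control library (grey circles) and the SOX4KO libraries (red squares, GR18, and red triangles, GR19), with 95% Poisson intervals, where a library had at least 20 cells in a cluster. Gucy1b1 is highest in D and E, at 21.6 to 48.6 CPM, where Prkg2 is lowest, at 1.65 to 10.9 CPM.

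Pde5a and Nos3 were too sparse for an order of clusters. Pde5a had 34 UMIs in the control cells of A, and 1, 2, 9, 8 and 7 UMIs in the SOX4KO cells of B to F. Nos3 had 6, 8, 2, 0 and 4 UMIs in the SOX4KO cells of B to F, so that its UMIs lay mostly outside D and E, where Gucy1b1 was highest.

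Gucy1b1 and Prkg2 were also set side by side within cells. In GR18, 12.5% of the 96 cells with a UMI of Gucy1b1 also had one of Prkg2 (6.63 to 20.8), against 34.4% of the other cells (28.8 to 40.4). In GR19 the shares were 24.1% (15.6 to 34.5) and 30.5% (25.2 to 36.4), and in the control library GR17 35.5% (19.2 to 54.6) and 38.2% (33.0 to 43.6). The intervals were apart in GR18 and overlapped in GR19 and GR17. Cells with a UMI of Gucy1b1 were deeper in every library, with median depths of 25024, 22960 and 25958 UMIs in GR17, GR18 and GR19 against 19214, 18710 and 20461 in the other cells.

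Genes with the most similar pattern were found by Pearson's r of log2(CPM + 1) over the 11 sums of a cluster and library with at least 20 cells, among 6303 genes with at least 20 CPM on average. For Gucy1b1 these were Sgms1, a sphingomyelin synthase (r = 0.89), S100a8, a calcium-binding protein known from myeloid cells (0.88), and Emc3, a subunit of a membrane protein insertion complex (0.88). For Prkg2 they were Tpm1, a tropomyosin (0.97), Snrpb2, a spliceosome component (0.97), and Pdlim1, a protein of actin stress fibres (0.96). The sums share libraries and differ in depth, so these values describe likeness and carry no p.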

How the data were processed

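For 5 bulk libraries the authors deposited read counts per Ensembl gene, and for 3 plates of 384 wells UMI counts per gene and well, both without normalization. The submitters' processing notes name STAR 2.4.2a, HTSeq and the builds NCBIM37 and mm9. Of 38293 identifiers, 36345 matched a symbol in GENCODE M21. Between 45.7% and 53.0% of the reads listed in the bulk files were not unique and 25.3% to 30.4% fell on no gene, and these stayed out of library sizes. Reads on genes per library are given with the results.

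For bulk counts, edgeR 4.0.16 in R 4.3.3 was used. Low counts were removed by filterByExpr, TMM factors were applied, and the quasi-likelihood F-test was run on the remaining 11682 genes, with Benjamini-Hochberg adjustment and calls under 0.1. The SE is the log2 fold change divided by the square root of F. Levels per kilobase used exon lengths of the same annotation. The p-values set the difference between control and SOX4KO lines against the spread between lines of a group, a spread estimated in part across genes. The steps were tested on simulated data with known changes.

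Wells with at least 1000 UMIs were kept, spike-ins were left out, and UMIs were summed per library or cluster. Wells over 2 times the median of their library (8, 20 and 11) were kept, and no doublet caller was run. Clusters came from Seurat 5.3.0 (2000 variable genes, 10 principal components, 20 neighbours, resolution 0.5). Intervals are at 95%, exact Poisson for CPM and Clopper-Pearson for shares, and the floor is 3 counts.

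The members, the gene lists, motifs and tests were chosen with earlier results of these data known. Named were all members, every pathway gene called in bulk, and for each member with at least 5 CPM on average in single cells the 3 genes of most similar pattern. Ctso, Plrg1, Pdgfc, Map9, the markers given with values, Pde9a and the other pathway genes with values were named by position or role after their values were seen. Alternatives were DESeq2 1.42.0, its size factors, other filters and thresholds, each line or library left out, UMI minimums of 500 and 2000, a pseudocount of 10 CPM, thinning, 20 components and a resolution of 0.3.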

Additional observations from a re-analysis of the deposited data

Results flagged for a closer look

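Prkg2 moved in opposite directions in bulk and in single cells. In bulk its log2 fold change was 2.15, with every SOX4KO line above both control lines. In the single-cell libraries the log2 ratio to the control library, with 1 CPM added, was -0.39 for GR18 and -0.52 for GR19. The difference between the assays was not tested. Prkg2 was counted at 0.797 to 10.3 CPM in bulk and at 31.9 to 46.3 CPM in the single-cell libraries, and the labels do not tie the single-cell libraries to bulk lines.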

How the results depend on the processing

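With 1 line left out, the log2 fold change was 2.67 to 3.19 for Gucy1b1, 1.38 to 3.52 for Prkg2 and -2.31 to -1.30 for Pde5a. These genes were chosen with this contrast known, so their calls are not read. The count of members called was 2, where 733 genes were called in all. It was 1 at an adjusted p under 0.05 (354 genes in all), 3 with DESeq2 (963 in all) and 3 with no filter on low counts (1686 in all). With 1 SOX4KO line left out it was 1 to 2 (646 to 1006 in all). The count of pathway genes called was 3, and it was 5 with no filter on low counts, where 1686 genes were called in all against 733, and 0 to 4 when 1 line was left out. It was 0 without WT3 and 1 without WT1, when 56 and 130 genes were called in all. With 1 control line left, that line is assumed to vary as the SOX4KO lines do. All genes called numbered 354 at an adjusted p under 0.05. In single cells the mean log2 ratio of Gucy1b1, 1.85, was 1.07 with a pseudocount of 10 CPM, and that of Pde5a moved from -1.19 to -0.36. These ratios, that of Prkg2 and the highest cluster levels of Gucy1b1 and Prkg2 kept their direction or level. No paired analysis was possible because the lines are separate clones and the labels give the groups no shared replicate numbers. The members with at most 11 reads in any bulk line (Gucy1a1, Nos1, Nos2, Nos3 and Prkg1) are limited by depth.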
